A study of Homo sapiens with 10 samples.

Results

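Transcripts of 9 transcription factors that set lung and endoderm lineage identity were followed across a discodermolide-sensitive lung cancer line, a resistant line and a line named for 4E-BP1. The factors were FOXA1, FOXA2, NKX2-1, GATA6, HNF4A, SOX2, SOX9, CEBPA and KLF5. They were taken as the probe sets that the platform annotation assigns to each gene, with the highest mean kept where a gene has several. A probe set was named for 8 of the 9, out of 18279 genes tested, and each of the 8 had 1 probe set. HNF4A, a nuclear receptor of liver and gut, was not analysed here.

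The study measured gene expression on 10 Affymetrix arrays of total RNA from cultured human cells, 1 array per sample. AD32 4E-BP1 cells (1 array) bear the name of the translation repressor 4E-BP1, are labelled sensitive and were kept in 0.01% DMSO. AD32 cells (3 arrays) are labelled resistant and were grown in 32 nM discodermolide, a marine polyketide that holds microtubules in the polymerised state. A549 cells, an established human lung adenocarcinoma line, were either given 32 nM discodermolide and labelled senescent (2 arrays) or given 0.01% DMSO and labelled sensitive (4 arrays). All cells were grown in the same medium. The labels do not say how AD32 was derived, whether AD32 or AD32 4E-BP1 is 1 clone, or how long A549 was exposed. AD32 differs from A549 in DMSO, and from AD32 4E-BP1, in both labelled line and drug, which cannot be told apart in those comparisons. The numbered samples are labelled biological replicates with nothing on separate cultures, so p-values measure only the spread between these samples.

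Lung and liver both arise from foregut endoderm. FOXA1 and FOXA2 are forkhead factors that can bind closed chromatin and open it for others, GATA6 acts with them in early endoderm, and NKX2-1 marks the lung part of the foregut and later drives surfactant genes in alveolar cells. SOX2 marks the proximal, future airway part of the lung tube and SOX9 its distal tips, while CEBPA and KLF5 act in the maturation of alveolar and other epithelial cells.

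Levels are log2 signals as the authors deposited them. A difference of 1 is a 2-fold ratio of signal, which need not equal the ratio of transcripts. Differences were tested with limma over all genes and called at a Benjamini-Hochberg adjusted p under 0.05, and intervals are 95% intervals of the fit. Array medians lay between 6.50 and 6.63 and lower quartiles between 4.77 and 4.94. Signal above background was not shown for any level.

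The array labelled AD32 4E-BP1 lay outside the AD32 values at 6 of 6 genes that separate the lines, and near A549 DMSO at 5 of them. The 6 genes were chosen after their values were seen. KRT7, a simple-epithelial keratin, stood at 7.35 on it, at 11.74 to 11.84 in AD32 and at 7.00 to 7.40 in A549 DMSO. SERPINB5, which encodes maspin, stood at 3.92 on it, at 9.49 to 10.83 in AD32 and at 3.68 to 4.26 in A549 DMSO. NTS, which encodes neurotensin, did not match A549 DMSO there, at 7.62 on this array, 3.63 to 5.96 in AD32, 7.48 and 7.54 in A549 discodermolide, and 10.39 to 11.74 in A549 DMSO. The array correlated at 0.9955 over all probe sets with A549 DMSO replicate 2 and at 0.944 to 0.983 with the AD32 arrays. EIF4EBP1, the gene of 4E-BP1, was at 11.61 on this array, above all other arrays (7.99 to 10.23). Mitotic transcripts set other arrays apart. The mean of 10 mitosis genes was 10.25 on the array labelled AD32 4E-BP1, 5.42, 6.49 and 10.06 in AD32 replicates 1 to 3, 7.12 and 7.32 in A549 discodermolide, and 7.29, 10.31, 10.43 and 10.41 in A549 DMSO replicates 1 to 4. AD32 replicate 3 and A549 DMSO replicate 1 thus stood apart from their groups, and some of the results below are given with and without them. A549 DMSO replicates 3 and 4 correlated at 0.997.

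Over the 8 measured factors, 2 passed the test in AD32 against A549 DMSO, FOXA1 and KLF5, both higher. In that comparison 5.72% of all genes were called, 3.52% as higher. In AD32 against A549 discodermolide, FOXA1 alone passed, with 3.74% of all genes called and 1.28% as higher. In A549 discodermolide against A549 DMSO no factor passed, with 0.372% of all genes called, and 0 factors had an unadjusted limma p under 0.05, against 11.1% of all genes. For the array labelled AD32 4E-BP1, 0 factors passed against AD32 (0.919% of all genes called), and 2 had an unadjusted limma p under 0.05, against 9.46% of all genes. Against A549 DMSO 0 factors passed and 0% of all genes were called, and 0 factors had an unadjusted limma p under 0.05, against 1.14% of all genes. The median log2 difference over the 8 factors was 0.50 in AD32 against A549 DMSO, where the median of all genes was 0.01. It was 0.31 in AD32 against A549 discodermolide and 0.07 in A549 discodermolide against A549 DMSO, where the medians of all genes were 0.005 and 0.02. These comparisons share control samples.

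**Figure D1:**
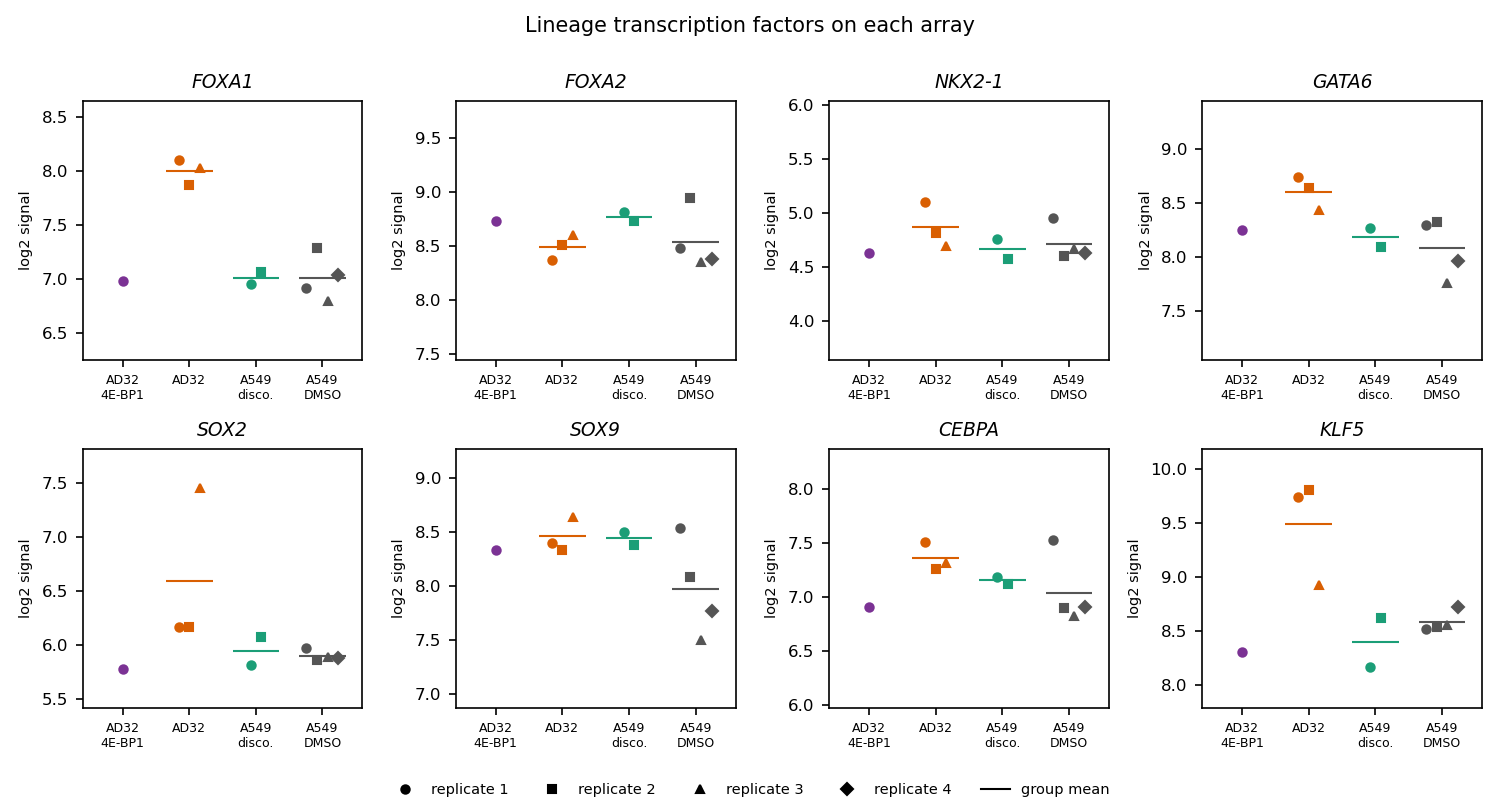
Log2 signal of each measured lineage factor (vertical axis) on every array, by group, with 1 point per array and a line at each group mean. All 3 AD32 arrays lay above all other arrays for FOXA1 and KLF5, while FOXA2 and NKX2-1 overlapped between AD32 and A549 DMSO.

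The forkhead factors differed from each other. FOXA1 (probe set 7978706, chromosome 14) was at 6.99 on the array labelled AD32 4E-BP1, at 8.11, 7.87 and 8.03 in AD32, at 6.95 and 7.06 in A549 discodermolide, and at 6.92, 7.29, 6.80 and 7.03 in A549 DMSO. The 3 AD32 arrays were the highest of the 10, and the other 7 arrays lay together. FOXA1 averaged 8.003 ± 0.12 in AD32 (SD, n = 3), 7.01 ± 0.08 in A549 discodermolide (SD, n = 2) and 7.01 ± 0.21 in A549 DMSO (SD, n = 4). AD32 was higher than A549 DMSO by 0.99 (SE 0.14, interval 0.67 to 1.32, limma adjusted p = 0.00545), a 1.99-fold ratio of signal. This call was kept in 17 of 17 alternative settings, with differences of 0.92 to 1.09 and adjusted p of 0.00185 to 0.0357. AD32 replicate 3, whose mitotic transcripts were high, and replicates 1 and 2, whose mitotic transcripts were low, all had FOXA1 near 8. The part of mitotic transcripts in the FOXA1 values was not tested.

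At the same labelled dose of drug, FOXA1 was also higher in AD32 than in A549 discodermolide, by 0.99 (SE 0.17, interval 0.60 to 1.38, limma adjusted p = 0.0155). That call ended without AD32 replicate 1 (adjusted p = 0.0513), without A549 discodermolide replicate 1 (0.15) or replicate 2 (0.118). The difference stayed between 0.94 and 1.06 in every setting run. Discodermolide itself moved FOXA1 in A549 by -0.001, with an interval of -0.37 to 0.37 (limma adjusted p = 0.999). The array labelled AD32 4E-BP1 lay 1.02 below AD32 (interval -1.51 to -0.52), which did not pass (limma adjusted p = 0.0914), and differed from A549 DMSO by -0.02 (interval -0.50 to 0.45). The AD32 difference passed with array weights (adjusted p = 0.0229) and without AD32 replicate 3 and A549 DMSO replicate 1 (adjusted p = 0.0148).

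FOXA2 (probe set 8065344, chromosome 20), the paralogue of FOXA1 that patterns the foregut and later the alveoli, was at 8.72 on the array labelled AD32 4E-BP1, at 8.37, 8.50 and 8.60 in AD32, at 8.81 and 8.73 in A549 discodermolide, and at 8.47, 8.94, 8.35 and 8.37 in A549 DMSO. AD32 and A549 DMSO overlapped. The difference of AD32 from A549 DMSO was -0.04 (interval -0.41 to 0.33, limma adjusted p = 0.943). All 3 AD32 arrays lay below both A549 discodermolide arrays, by 0.28 on average, but the difference did not pass (interval -0.72 to 0.16, limma adjusted p = 0.616). Treated A549 lay 0.24 above A549 DMSO, within an interval of -0.18 to 0.66.

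The promoter of FOXA1 is shown because its transcript differed in both AD32 comparisons. The sequence below is the RefSeq table's 250 bases before and 50 after the gene's start in GRCh38.p14 (chr14:37595200-37595499, minus strand), printed 5′ to 3′ along the gene. Capitals mark matches, on either strand, to short core motifs of the factor families, counted with overlaps. The core searched for forkhead factors was TGTTTAC, found in 3.42% of the table's 35116 promoters. That for the SOX family was ACAAAG, found in 16.1% of them. The letters AGATAA stood for the endoderm zinc-finger family of GATA6 and occurred in 10.3%. NKX2-1 was searched as CAAGTG, which occurred in 11.5%, and the KLF family as GGGCGGG, which occurred in 33.1%.
FOXA1: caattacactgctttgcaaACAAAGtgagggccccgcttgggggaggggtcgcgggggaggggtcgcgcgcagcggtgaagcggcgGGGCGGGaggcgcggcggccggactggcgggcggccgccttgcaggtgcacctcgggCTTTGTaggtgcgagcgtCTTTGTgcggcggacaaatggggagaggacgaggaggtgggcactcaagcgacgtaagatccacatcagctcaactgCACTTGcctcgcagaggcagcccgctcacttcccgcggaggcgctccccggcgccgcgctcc
It held 3 SOX matches, 1 NKX2-1 match and 1 KLF match, with no overlap between them. A match describes the letters and shows no binding. The window was 69.3% G and C.

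KLF5 (probe set 7969414, chromosome 13) encodes a zinc-finger factor of proliferating and barrier-forming epithelia. It was at 8.30 on the array labelled AD32 4E-BP1, at 9.74, 9.80 and 8.92 in AD32, at 8.16 and 8.62 in A549 discodermolide, and at 8.52, 8.54, 8.55 and 8.72 in A549 DMSO. The 3 AD32 arrays were again the highest, and replicate 3 was the lowest of them, 0.20 above the nearest A549 array. KLF5 averaged 9.49 ± 0.49 in AD32 (SD, n = 3), 8.39 ± 0.32 in A549 discodermolide (SD, n = 2) and 8.58 ± 0.10 in A549 DMSO (SD, n = 4). AD32 was higher than A549 DMSO by 0.91 (SE 0.22, interval 0.40 to 1.41, limma adjusted p = 0.0482), a 1.87-fold ratio. The call was close to the threshold and was kept in 6 of 17 alternative settings, with adjusted p of 0.000554 to 0.179. It was lost on removal of AD32 replicate 1 (difference 0.78, adjusted p = 0.167) or 2 (0.75, 0.179), or of A549 DMSO replicate 2 (0.104), 3 (0.125) or 4 (0.102). It was kept without AD32 replicate 3, where the difference was 1.19. Mitotic transcripts were low on AD32 replicates 1 and 2, which had the highest KLF5, and high on replicate 3. Their part in the result was not tested.

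Against A549 discodermolide, KLF5 in AD32 lay 1.10 higher, which did not pass (SE 0.27, interval 0.50 to 1.70, limma adjusted p = 0.06) but did without AD32 replicate 3 (difference 1.38, adjusted p = 0.00433). Discodermolide in A549 gave -0.19 (interval -0.76 to 0.38, limma adjusted p = 0.875). The array labelled AD32 4E-BP1 lay 1.19 below AD32 (interval -1.95 to -0.43, limma adjusted p = 0.22), and this passed only when AD32 replicate 3 was left out (-1.47, adjusted p = 0.0131), alone or with A549 DMSO replicate 1, and with array weights. Against A549 DMSO the same array gave -0.28 (interval -1.01 to 0.46).

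RefSeq lists more than 1 start for KLF5, and a gene-level probe set cannot say which was used. The windows at both starts in the table (GRCh38.p14, plus strand) are shown for that reason, the upstream one at chr13:73054726-73055025 and the downstream one at chr13:73058755-73059054, with capitals as for FOXA1.
KLF5 upstream start: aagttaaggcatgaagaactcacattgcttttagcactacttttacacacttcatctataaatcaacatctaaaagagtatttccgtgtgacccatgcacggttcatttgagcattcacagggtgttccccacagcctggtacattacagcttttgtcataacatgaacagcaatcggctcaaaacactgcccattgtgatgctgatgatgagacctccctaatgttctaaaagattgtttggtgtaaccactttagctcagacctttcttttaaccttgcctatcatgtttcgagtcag
KLF5 downstream start: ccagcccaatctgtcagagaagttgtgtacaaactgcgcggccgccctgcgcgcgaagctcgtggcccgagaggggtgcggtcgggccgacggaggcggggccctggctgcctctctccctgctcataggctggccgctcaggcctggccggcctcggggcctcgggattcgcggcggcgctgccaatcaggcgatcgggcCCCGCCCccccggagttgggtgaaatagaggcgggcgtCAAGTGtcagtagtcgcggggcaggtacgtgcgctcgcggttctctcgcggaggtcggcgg
The upstream window was 40.7% G and C and held none of the 5 cores. The downstream window was 71.3% G and C and held 1 NKX2-1 match and 1 KLF match.

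GATA6 (probe set 8020455, chromosome 18), a zinc-finger factor of early endoderm and distal lung, was at 8.25 on the array labelled AD32 4E-BP1, at 8.73, 8.63 and 8.43 in AD32, at 8.27 and 8.09 in A549 discodermolide, and at 8.29, 8.32, 7.76 and 7.96 in A549 DMSO. All 3 AD32 arrays lay above the other 7, by 0.11 at the closest. AD32 exceeded A549 DMSO by 0.52 (SE 0.17, interval 0.14 to 0.90), which did not pass (limma adjusted p = 0.12). It passed with array weights (adjusted p = 0.0148) and without AD32 replicate 3 and A549 DMSO replicate 1 (0.0185). The difference of AD32 from A549 discodermolide was 0.42 (interval -0.03 to 0.87), and that of A549 discodermolide from A549 DMSO was 0.10 (interval -0.33 to 0.53).

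Over the factors, AD32 arrays lay wholly above A549 DMSO arrays for 4 of 8, namely FOXA1, KLF5, GATA6 and SOX2, where 8.9% of all genes did. They lay wholly above A549 discodermolide arrays for 5 of 8, where 14.4% of all genes did. The array labelled AD32 4E-BP1 lay below all AD32 arrays for 6 of 8, where 27.7% of all genes did.

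**Figure D2:**
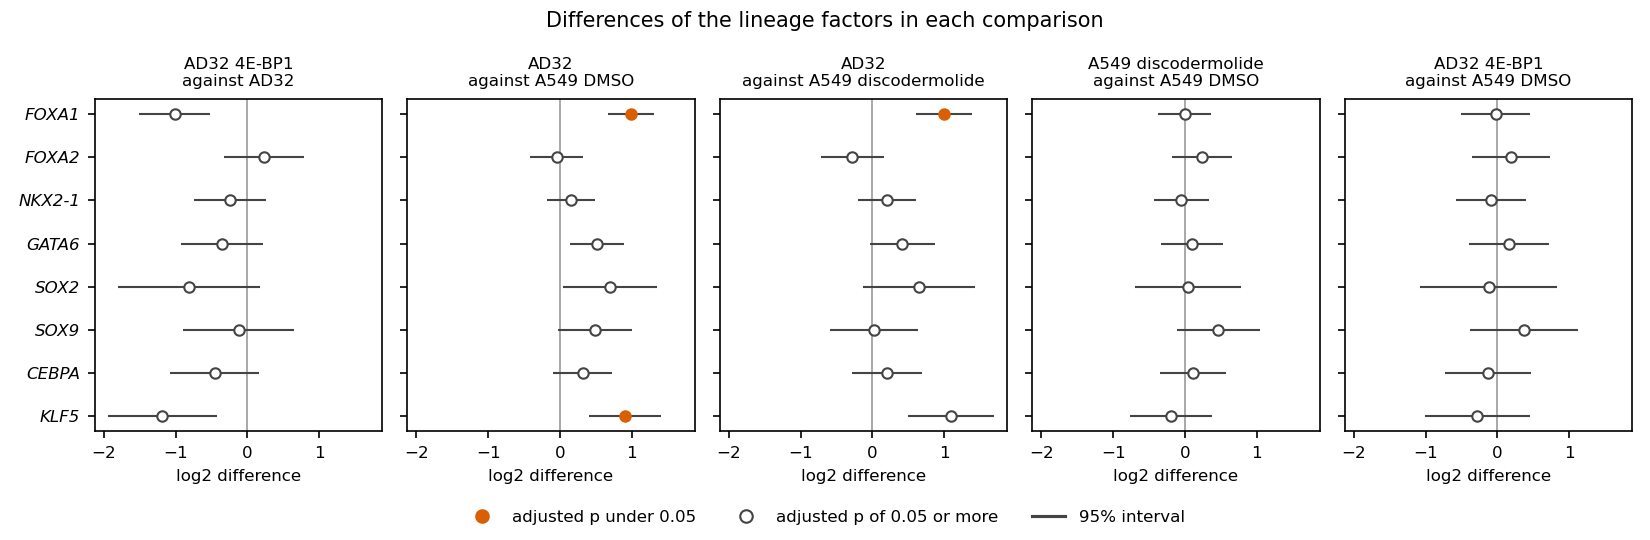
Log2 difference (horizontal axis) of each measured factor in the 5 comparisons, as points with 95% intervals, filled where the limma adjusted p was under 0.05. Filled points are FOXA1 and KLF5 in AD32 against A549 DMSO and FOXA1 in AD32 against A549 discodermolide.

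The SOX factors mark opposite ends of the lung tube. SOX2 (probe set 8084165, chromosome 3) was at 5.78 on the array labelled AD32 4E-BP1, at 6.16, 6.16 and 7.46 in AD32, at 5.81 and 6.07 in A549 discodermolide, and at 5.98, 5.86, 5.89 and 5.88 in A549 DMSO. AD32 replicate 3 was far above the rest, and AD32 replicates 1 and 2 lay just above all A549 arrays. The difference of AD32 from A549 DMSO was 0.69 (SE 0.29, interval 0.04 to 1.35, limma adjusted p = 0.226), and 0.26 without replicate 3. No comparison of SOX2 passed in any setting run.

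SOX9 (probe set 8009517, chromosome 17) was at 8.34 on the array labelled AD32 4E-BP1, at 8.41, 8.34 and 8.64 in AD32, at 8.50 and 8.38 in A549 discodermolide, and at 8.54, 8.09, 7.50 and 7.77 in A549 DMSO. A549 DMSO replicate 1 lay among the AD32 and treated arrays, and the other 3 A549 DMSO arrays lay below all of them. Treated A549 exceeded A549 DMSO by 0.47 (SE 0.26, interval -0.11 to 1.05, limma adjusted p = 0.556), the largest difference of a factor with the drug, a 1.38-fold ratio. AD32 exceeded A549 DMSO by 0.49 (SE 0.23, interval -0.03 to 1.00, limma adjusted p = 0.286) and A549 discodermolide by 0.02 (interval -0.60 to 0.63). Without A549 DMSO replicate 1, AD32 was 0.67 higher than A549 DMSO and passed (adjusted p = 0.0385). Without both that array and AD32 replicate 3, the drug difference was 0.66 and passed (adjusted p = 0.0351), as it did with array weights (0.72, adjusted p = 0.00763). A549 DMSO replicate 1 had low mitotic transcripts, as had the treated arrays, and their part in the SOX9 values was not tested.

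CEBPA (probe set 8036004, chromosome 19), a leucine-zipper factor of alveolar and liver maturation, had its highest value outside AD32. It was at 6.90 on the array labelled AD32 4E-BP1, at 7.50, 7.25 and 7.31 in AD32, at 7.19 and 7.11 in A549 discodermolide, and at 7.52, 6.90, 6.82 and 6.91 in A549 DMSO. The highest of all 10 values was A549 DMSO replicate 1, so AD32 and A549 DMSO overlapped. AD32 exceeded A549 DMSO by 0.32 (SE 0.18, interval -0.09 to 0.73, limma adjusted p = 0.396). Without A549 DMSO replicate 1 the difference was 0.48 and passed (adjusted p = 0.0366). It was 0.51 without AD32 replicate 3 as well (adjusted p = 0.0215).

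NKX2-1 (probe set 7978676, chromosome 14), the defining factor of lung endoderm, was at 4.64 on the array labelled AD32 4E-BP1, at 5.11, 4.82 and 4.70 in AD32, at 4.76 and 4.58 in A549 discodermolide, and at 4.96, 4.61, 4.67 and 4.63 in A549 DMSO. It was below the lower quartile of probe sets on 8 of the 10 arrays, and AD32 and A549 DMSO overlapped. AD32 differed from A549 DMSO by 0.16 (interval -0.18 to 0.49, limma adjusted p = 0.662), and A549 discodermolide differed from A549 DMSO by -0.05 (interval -0.43 to 0.33). The start window at chr14:36519507-36519806 (GRCh38.p14, minus strand, RefSeq) is shown for its forkhead core, with capitals as above.
NKX2-1: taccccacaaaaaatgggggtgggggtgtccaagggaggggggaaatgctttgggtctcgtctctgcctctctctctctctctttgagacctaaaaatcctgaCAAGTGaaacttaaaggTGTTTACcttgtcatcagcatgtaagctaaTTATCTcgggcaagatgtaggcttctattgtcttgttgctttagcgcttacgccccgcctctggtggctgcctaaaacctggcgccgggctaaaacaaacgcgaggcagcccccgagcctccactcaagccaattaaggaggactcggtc
It held 1 forkhead, 1 GATA and 1 NKX2-1 match. The window at the other start in the table, chr14:36520183-36520482, held 2 KLF matches and none of the other cores.

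**Figure D3:**
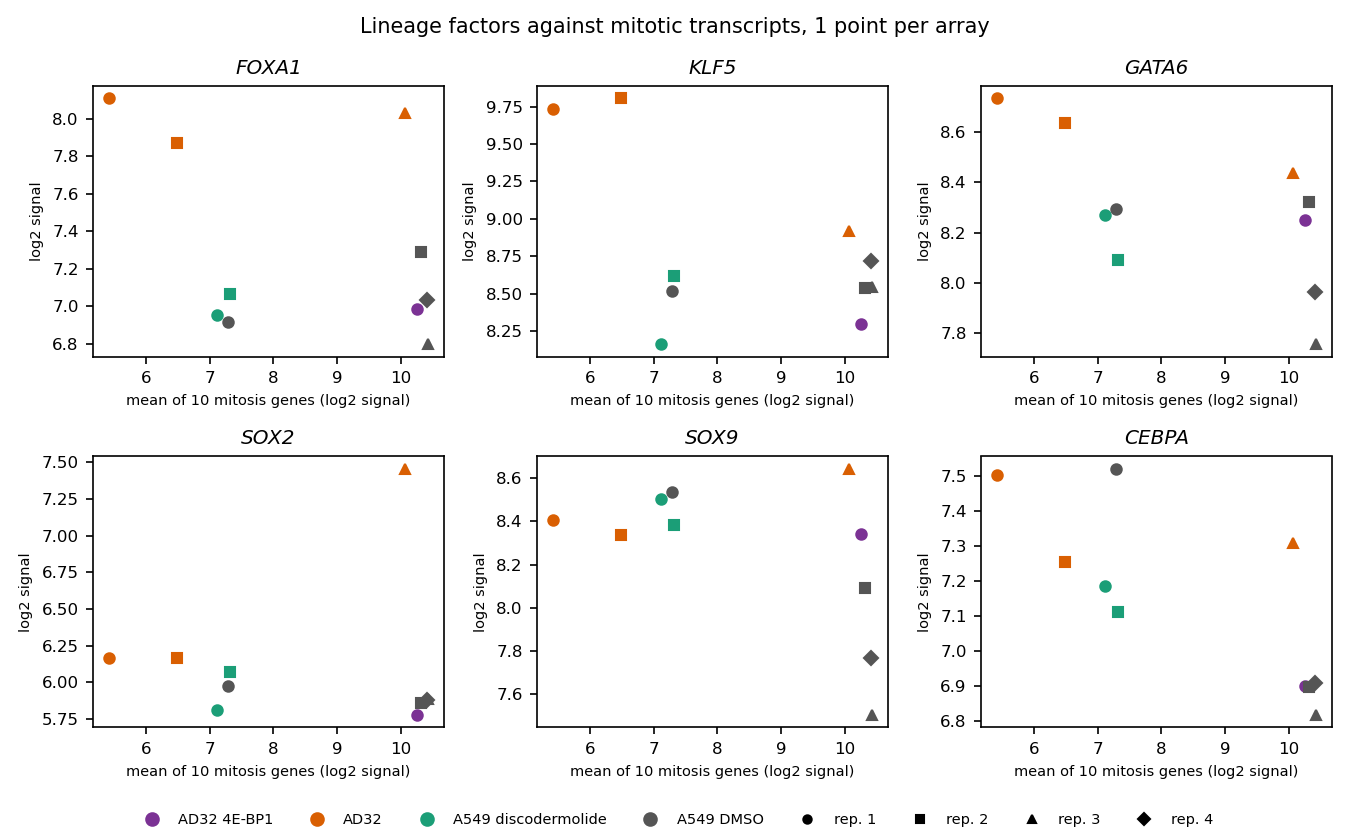
Log2 signal of 6 factors (vertical axis) against the mean log2 signal of 10 mitosis genes (horizontal axis), with 1 point per array, colour for the group and shape for the replicate. FOXA1 in AD32 lay between 7.87 and 8.11 on arrays with low and with high mitotic transcripts, whereas KLF5 was 9.74 and 9.80 on the low AD32 arrays and 8.92 on the high one.

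Other transcription factors of lung and endoderm were examined as a list of 36, of which 34 were measured. In AD32 against A549 DMSO, 4 were called higher and 1 lower, where 3.52% and 2.19% of all genes were, and the list's median log2 difference was 0.14. In AD32 against A549 discodermolide 3 were called higher and 1 lower, where 1.28% and 2.46% of all genes were. In A549 discodermolide against A549 DMSO limma called 0 of the 34. Without A549 DMSO replicate 1 the counts were 9 in AD32 against A549 DMSO, where 11.8% of all genes were then called, and 2 in A549 discodermolide against A549 DMSO, where 3.52% were. The count in AD32 against A549 discodermolide was 1 without A549 discodermolide replicate 1 and 2 without replicate 2, where 1.02% and 0.722% of all genes were called. NR5A2, a nuclear receptor of liver, pancreas and gut, was at 4.91 on the array labelled AD32 4E-BP1, at 7.37, 7.47 and 7.37 in AD32, at 4.84 and 4.60 in A549 discodermolide, and at 4.60, 4.61, 4.31 and 4.34 in A549 DMSO. Its AD32 arrays stood far above the others, which lay near or below the arrays' lower quartiles. NR5A2 signal rose 7.68-fold against A549 DMSO (log2 difference 2.94, SE 0.13, limma adjusted p = 7.74e-06) and 6.44-fold against A549 discodermolide (adjusted p = 4.02e-05). All NR5A2 ratios given here are of signal and no fold of transcripts, since nothing shows its levels outside AD32 above background. EHF, an ETS factor of airway and other epithelia, was at 5.01 on the array labelled AD32 4E-BP1, at 8.47, 8.30 and 9.92 in AD32, at 4.40 and 5.64 in A549 discodermolide, and at 5.21, 4.38, 4.79 and 4.53 in A549 DMSO. EHF was higher in AD32 than in A549 DMSO by 4.17 on the log2 scale (SE 0.43, limma adjusted p = 0.000887). Leaving out each replicate in turn gave differences of 3.65 to 4.47 for EHF. Its A549 levels lay near or below the arrays' lower quartiles, and nothing here shows them above background, so these differences in signal are no fold of transcripts. Against A549 discodermolide the log2 difference was 3.88 (adjusted p = 0.00476), 4.50 without A549 discodermolide replicate 2, and 3.25 without replicate 1, which did not pass (adjusted p = 0.0597).

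KLF4, a zinc-finger factor of epithelial differentiation related to KLF5, was at 7.52 on the array labelled AD32 4E-BP1, at 9.32, 9.39 and 8.68 in AD32, at 7.47 and 7.57 in A549 discodermolide, and at 7.69, 7.33, 7.37 and 7.33 in A549 DMSO. As with KLF5, AD32 replicate 3 was the lowest AD32 array and still above all A549 arrays. KLF4 rose 3.25-fold against A549 DMSO (log2 difference 1.70, SE 0.19, limma adjusted p = 0.0013). YAP1, the transcriptional coactivator of the Hippo pathway, rose 1.74-fold in AD32 against A549 DMSO (limma adjusted p = 0.0096). HHEX, a homeobox factor of foregut and liver that was named after its values were seen, fell 2.72-fold (limma adjusted p = 0.0177), a call that ended without AD32 replicate 1 (adjusted p = 0.0697) or 2 (0.0811) or A549 DMSO replicate 4 (0.0553). CEBPD, a relative of CEBPA that responds to stress, was 1.64-fold lower in AD32 against A549 discodermolide (limma adjusted p = 0.033). That call ended without AD32 replicate 2 (0.0825) or either treated array (0.246 and 0.186). CEBPD was at 7.30 to 7.64 in AD32, 8.16 and 8.26 in A549 discodermolide and 7.65 to 7.85 in A549 DMSO. It was not called in AD32 against A549 DMSO. The array labelled AD32 4E-BP1 was lower than AD32 for NR5A2 (5.65-fold, limma adjusted p = 0.000512), EHF (log2 difference -3.88, 0.0316) and KLF4 (3.04-fold, 0.04). Leaving out AD32 replicate 1 ended the EHF call (adjusted p = 0.0598), leaving out AD32 replicate 1 or 2 ended the KLF4 call (0.111 and 0.102), and all 3 ended with only the groups compared in the fit.

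**Figure D4:**
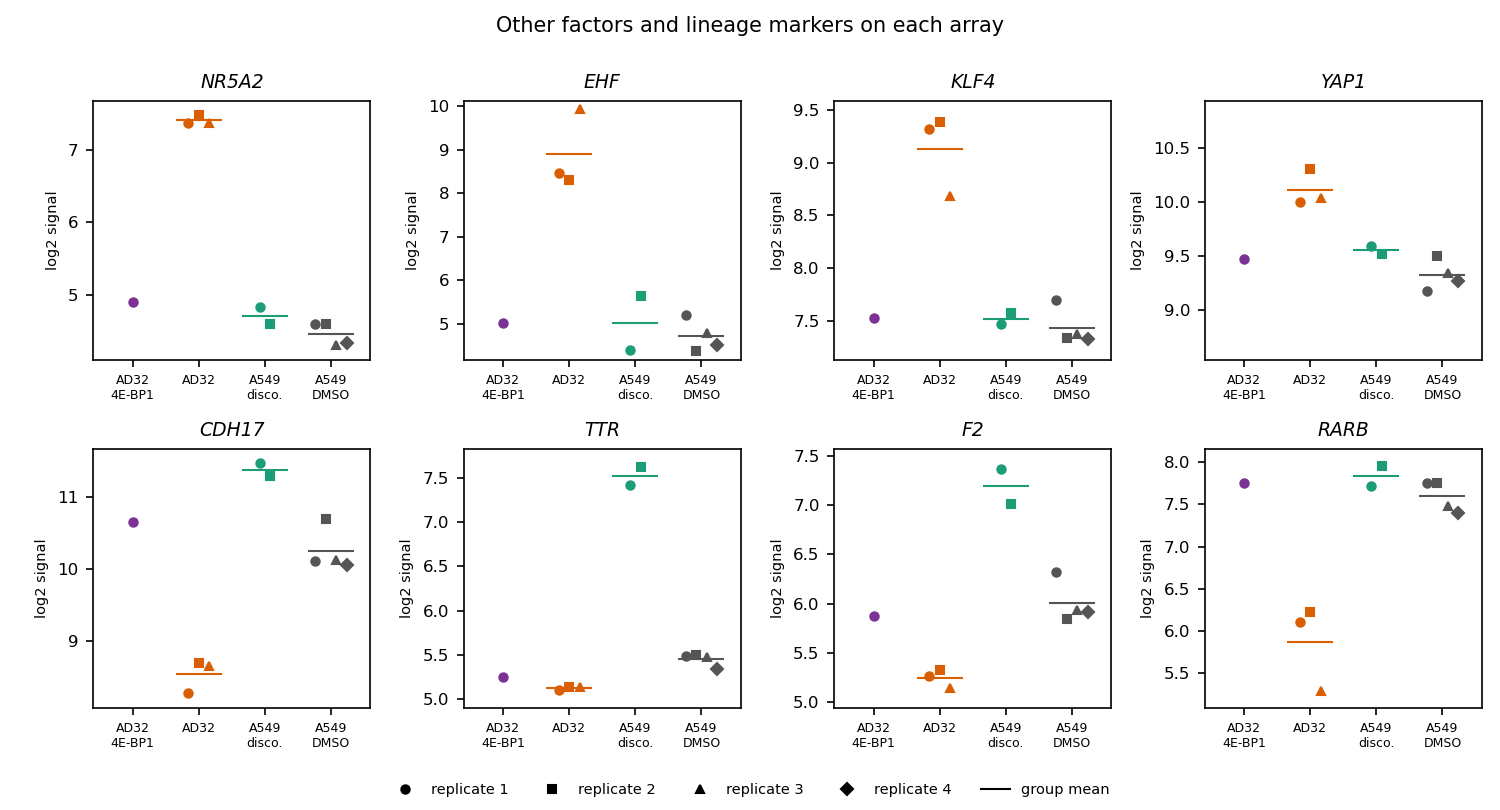
Log2 signal (vertical axis) of other lineage factors and markers on every array, by group, with 1 point per array and a line at each group mean. NR5A2, EHF, KLF4 and YAP1 were highest on the 3 AD32 arrays, CDH17 and RARB were lowest there, and TTR and F2 were highest in A549 discodermolide.

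Lung cell type markers were not called beside these factors. Of 13 alveolar type II, 8 alveolar type I and 12 airway markers measured, 0 were called by limma in any of the 5 comparisons. Their median log2 differences in AD32 against A549 DMSO were 0.14, -0.16 and 0.05. Without AD32 replicate 3, 2 alveolar type II, 2 alveolar type I and 0 airway markers were called in that comparison, where 10.8% of all genes then were. Without A549 DMSO replicate 1 the counts were 1, 1 and 1, where 11.8% of all genes were called. Leaving out AD32 replicate 3 also gave 2 alveolar type II markers in AD32 against A549 discodermolide (5.92% of all genes), and 2 alveolar type II and 1 alveolar type I markers in AD32 4E-BP1 against AD32 (3.59%). Leaving out A549 DMSO replicate 1 gave 1 alveolar type II marker in A549 discodermolide against A549 DMSO (3.52%). Of 8 neuroendocrine markers limma called 0. Without AD32 replicate 3 it called 1 in AD32 against A549 DMSO, where 10.8% of all genes were called. Of 6 basal and squamous markers, ITGB4, an integrin of hemidesmosomes, rose 9.30-fold in AD32 against A549 DMSO (limma adjusted p = 0.00634), and 14.2-fold without AD32 replicate 3 and A549 DMSO replicate 1. It was the only 1 of the 6 called as reported, where 3.52% of all genes were called higher. ITGB4 was at 9.77 to 10.88 in AD32, 7.75 and 8.05 in A549 discodermolide and 6.32 to 8.34 in A549 DMSO. AD32 was 4.83-fold above A549 discodermolide, which did not pass (limma adjusted p = 0.0713) but did without both those arrays (0.000945). Treated A549 lay 0.94 above A549 DMSO in ITGB4, which did not pass (limma adjusted p = 0.588) but did without both (0.0107). Of 7 simple epithelial markers, CDH1, which encodes E-cadherin, rose 2.16-fold in AD32 against A549 DMSO (limma adjusted p = 0.0357). It was the only 1 of the 7 called there, where 3.52% of all genes were called higher. The call was lost on removal of AD32 replicate 1 (0.0909) or 2 (0.141) or of A549 DMSO replicate 2, 3 or 4 (0.0773, 0.103 and 0.104). CDH1 was at 9.81 to 10.40 in AD32, 9.67 and 10.01 in A549 discodermolide and 8.46 to 9.53 in A549 DMSO. It was not called in AD32 against A549 discodermolide. Treated A549 lay 0.92 above A549 DMSO, which did not pass (limma adjusted p = 0.276).

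Markers of other endoderm derivatives differed in some members. In A549 discodermolide against A549 DMSO, 2 of 18 hepatocyte markers were called, both higher, where 0.35% of all genes were. Called or not, 14 of the 18 lay higher and 4 lower, where 54.0% of all genes lay higher. The list's median log2 difference was 0.82, where that of all genes was 0.02. TTR, the thyroid hormone carrier transthyretin, stood at 7.42 and 7.63 in A549 discodermolide, against 5.49, 5.50, 5.48 and 5.34 in A549 DMSO, and rose 4.20-fold (limma adjusted p = 0.000293). F2, which encodes prothrombin, rose 2.28-fold (limma adjusted p = 0.0296), a call lost on removal of either treated array (0.294 and 0.197) or of A549 DMSO replicate 2, 3 or 4 (0.0928, 0.118 and 0.123). Without A549 DMSO replicate 1, 6 of the 18 were called, where 3.52% of all genes then were. FOXA2, GATA6 and CEBPA, factors of the liver as well as the lung, were not called in that comparison. ALB, AFP, APOB and TF lay below the lower quartile on all 10 arrays, and the other 14 of the 18 did not. In AD32 against A549 DMSO, 2 hepatocyte markers were called and both fell, where 2.19% of all genes did, APOH (log2 difference -3.80, limma adjusted p = 0.00654; -4.51 without AD32 replicate 3) and F2 (1.69-fold, 0.0228). F2 lost that call without AD32 replicate 1 (0.0719) or 2 (0.0634) or A549 DMSO replicate 3 (0.0629) or 4 (0.062), while 5 of the 18 were called without A549 DMSO replicate 1, where 11.8% of all genes were. Compared with A549 discodermolide, 4 of the 18 were called lower in AD32, where 2.46% of all genes were, APOH, TTR (5.27-fold, limma adjusted p = 3.23e-05), F2 (3.86-fold, 0.000762) and AMBP. Called or not, 14 of the 18 lay lower and 4 higher there, where 50.7% of all genes lay higher. The list's median log2 difference was -0.63, where that of all genes was 0.005. APOH, which encodes apolipoprotein H, fell by 5.02 on the log2 scale (limma adjusted p = 0.00546), with a difference of -5.72 without AD32 replicate 3, and did not pass without A549 discodermolide replicate 2 (0.0764). It was at 4.37 and 4.60 in AD32 replicates 1 and 2, below those arrays' lower quartiles, so these differences too are no fold of transcripts. AMBP, the precursor of a plasma protease inhibitor, fell 4.48-fold (limma adjusted p = 0.0301) and did not pass without AD32 replicate 2 (0.0898) or either treated array (0.254 and 0.126). TTR and AMBP were not called in AD32 against A549 DMSO. TTR averaged 5.13 in AD32, 5.45 in A549 DMSO and 7.52 in A549 discodermolide, and AMBP 6.09, 6.68 and 8.25. In AD32, TTR lay at 5.10 to 5.14 and F2 at 5.14 to 5.32, near the arrays' lower quartiles. TTR in A549 DMSO, at 5.34 to 5.50, lay little above that. The ratios of TTR and F2 in AD32, and of TTR against A549 DMSO, are of signal and no fold of transcripts.

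CDH17, a cadherin of intestinal epithelium, was at 10.64 on the array labelled AD32 4E-BP1, at 8.28, 8.69 and 8.65 in AD32, at 11.46 and 11.28 in A549 discodermolide, and at 10.12, 10.69, 10.13 and 10.06 in A549 DMSO. It was lowest on the AD32 arrays. CDH17 fell 7.12-fold in AD32 against A549 discodermolide (limma adjusted p = 0.000279) and 3.27-fold against A549 DMSO (0.0012). It was the only called gene of 14 gastrointestinal markers in these comparisons, where 2.46% and 2.19% of all genes were called lower. Of 14 foregut signalling genes, 2 rose and 1 fell in AD32 against A549 DMSO, where 3.52% and 2.19% of all genes did, and 2 fell against A549 discodermolide, where 2.46% did. WNT7B, a Wnt ligand of lung epithelium, rose 2.31-fold in AD32 against A549 DMSO (limma adjusted p = 0.00689). NOTCH1, a Notch receptor, rose 1.69-fold (limma adjusted p = 0.0216), a call lost on removal of AD32 replicate 2 (0.087) or of A549 DMSO replicate 3 (0.0634) or 4 (0.0733). RARB, a retinoic acid receptor, was at 6.10, 6.23 and 5.29 in AD32 and at 7.75, 7.76, 7.48 and 7.40 in A549 DMSO, and fell 3.31-fold (limma adjusted p = 0.00335). Against A549 discodermolide it fell 3.90-fold (limma adjusted p = 0.00546), a call lost on removal of A549 discodermolide replicate 2 (0.0797). HES1, a target gene of Notch signalling, was at 8.55, 8.40 and 8.85 in AD32, 9.71 and 9.72 in A549 discodermolide, and 8.77 to 9.25 in A549 DMSO. It was 2.16-fold lower in AD32 than in A549 discodermolide (limma adjusted p = 0.0164). That call ended without AD32 replicate 1 (0.0538) or 2 (0.0521) or either treated array (0.136 and 0.142). HES1 was not called in AD32 against A549 DMSO (limma adjusted p = 0.115).

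Leukocyte and endothelial markers, 4 and 5 measured, had 0 limma calls in the 5 comparisons, and PTPRC and PECAM1 lay below the lower quartile on all 10 arrays. Of 6 fibroblast markers, COL3A1, a fibrillar collagen, fell 4.23-fold in AD32 against A549 DMSO (limma adjusted p = 0.00789). It was the only 1 of the 6 called there, where 2.19% of all genes were called lower. The fibroblast list's log2 summed signal was 8.52 to 8.83 in AD32 and 9.13 to 9.70 in A549 DMSO, and DCN and PDGFRA lay below the lower quartile on all 10 arrays.

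The genes nearest to FOXA1 and KLF5 in pattern were named by the smallest root mean square difference over the 10 arrays after centring each gene. For FOXA1 they were SPON2 (0.14), SFI1 (0.15) and CTPS2 (0.15), each highest on the 3 AD32 arrays. For KLF5 they were RAET1L (0.15), TSPAN13 (0.15) and SPON1 (0.17), each highest in AD32 replicates 1 and 2. These are log2 differences of pattern, given as a description.

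**Figure D5:**
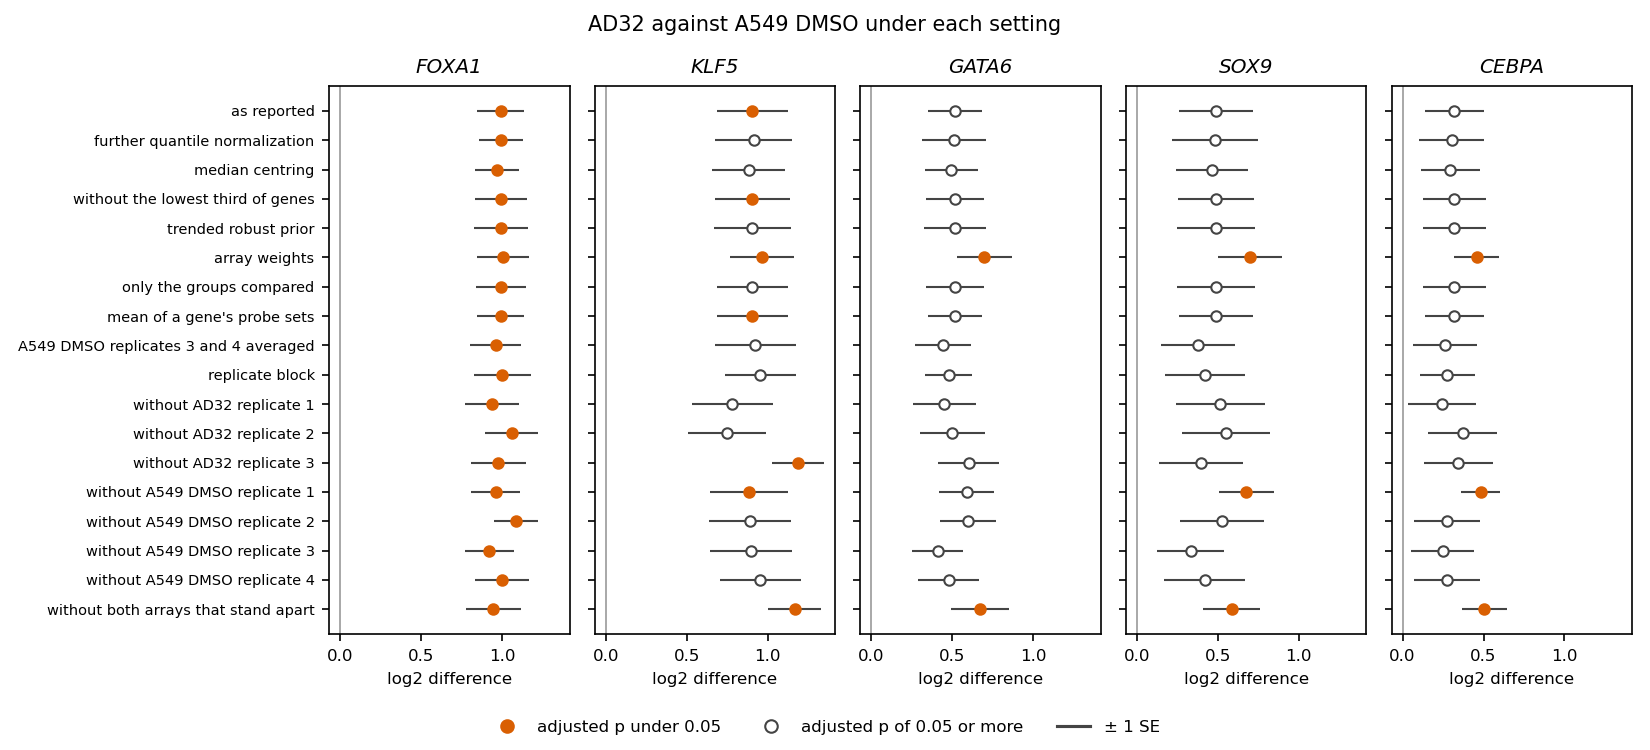
Log2 difference of AD32 from A549 DMSO (horizontal axis) for 5 factors under each processing setting, as points with 1 SE, filled where the limma adjusted p was under 0.05. FOXA1 was called in every setting shown, and KLF5, GATA6, SOX9 and CEBPA in some.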

How the data were processed

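Expression was measured on 10 arrays of cultured human cell lines. The range of the deposited values fits a log2 scale. The submitters' processing notes name Affymetrix Expression Console as the software with which the authors made them, without a version, and how it summarised or normalized is not given in the sources used here. The values carry no detection call, and the number of arrays limits the precision.

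Of 24308 probe sets, 19262 named 1 gene in the platform annotation, 1720 several, and 3326 had no name there, and only those with 1 gene were tested. This left 18279 genes. Where several probe sets named a gene (740 genes), the one with the highest mean was used. Groups came from the sample descriptions, and from the labelled cell line for the array labelled AD32 4E-BP1. Limma 3.58.1 in R 4.3.3 (lmFit, eBayes) was fitted to all 10 arrays with 4 group means, in two-sided tests of 5 comparisons, each adjusted by Benjamini-Hochberg across every gene tested and called under 0.05. The lone AD32 4E-BP1 array is taken to have the spread of the other groups. The members, lists and tests were chosen with earlier results of these data known. Named genes were the members, EIF4EBP1, up to 4 called genes with the smallest p per list and comparison, and the 3 nearest patterns of each called member.

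Other settings tried were median centring, a further quantile normalization, omission of the dimmest genes, a trended prior, array weights, only the groups compared, the mean of probe sets, A549 DMSO replicates 3 and 4 averaged, a replicate block, each replicate left out in turn and, added after seeing the data, removal of both arrays that stand apart. The fit was tested on simulated data with known changes. Of changes of 1 on the log2 scale it called 60% in AD32 against A549 DMSO and 53% in A549 discodermolide against A549 DMSO. It called 44% in AD32 against A549 discodermolide, and fewer in the comparisons with the lone AD32 4E-BP1 array. A missing call therefore does not show equal levels. Promoters are RefSeq's for GRCh38.p14. Python 3.11.15 was used for the summaries.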

Additional observations from a re-analysis of the deposited data

Results flagged for a closer look

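In the A549 DMSO group, the only one of 4 arrays, single arrays stood apart from the other 3 by more than 0.829 of the group's range for 7 of 32 named genes, 2 of them among the 8 lineage factors. Chance marks about 1 in 20 such groups. CEBPA was at 7.52 on replicate 1, against 6.82 to 6.91 on the others. KLF5 was at 8.72 on replicate 4, against 8.52 to 8.55 on the others. EIF4EBP1 was at 10.23 on replicate 1 (others 9.47 to 9.52), and KLF4 at 7.69 on replicate 1 (others 7.33 to 7.37). CDH17 was at 10.69 on replicate 2 (others 10.06 to 10.13), and HES1, a Notch target, at 8.77 on replicate 2 (others 9.21 to 9.25). TTR was at 5.34 on replicate 4 (others 5.48 to 5.50).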

How the results depend on the processing

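Of 579 values of single factors under the alternatives, 546 kept their side of the threshold, 15 lost a call, 18 gained one and 0 called values changed sign. In AD32 against A549 DMSO, 2 factors were called as reported, 1 after a further quantile normalization, median centring, with a trended prior, with only the groups compared, or with A549 DMSO replicates 3 and 4 averaged, and 5 with array weights or without both arrays that stand apart (AD32 replicate 3 and A549 DMSO replicate 1). In AD32 against A549 discodermolide 1 factor was called, and 2 with array weights or without both arrays. In AD32 4E-BP1 against AD32 0 were called, and 2 with array weights or without both arrays. In A549 discodermolide against A549 DMSO 0 were called, and 1 (SOX9) under those same settings. Leaving out each replicate gave 1 to 4 factors, 0 to 2, 0 to 1 and 0 to 0 in the same order, and 0 to 0 for AD32 4E-BP1 against A549 DMSO. The cause was not tested.

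Over all genes, AD32 against A549 DMSO gave 1045 calls, 4215 with array weights, 5164 without both arrays, 525 with replicates 3 and 4 averaged, and 512 to 2164 leaving out a replicate. AD32 against A549 discodermolide gave 683, 1869 with array weights, 2769 without both arrays, 353 with only the groups compared, and 132 to 1082. A549 discodermolide against A549 DMSO gave 68, 4573 with array weights, 2656 without both arrays, 106 with only the groups compared, 36 without the dimmest genes, 15 with replicates averaged, and 8 to 643. AD32 4E-BP1 against AD32 gave 168, 1282 with array weights, 3005 without both arrays, 13 with only the groups compared, 107 without the dimmest genes, 99 with replicates averaged, and 113 to 656. AD32 4E-BP1 against A549 DMSO gave 0, 3 with array weights, and 0 to 0. Its count at an unadjusted limma p under 0.05 was 208.

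Whether equal replicate numbers mark paired samples could not be settled. Deviations of same-numbered AD32 and A549 DMSO arrays correlated at 0.66, -0.25 and 0.40, and those of differently numbered arrays at -0.605 to 0.515. With the replicate block, AD32 against A549 DMSO gave 1 factor and 650 genes, AD32 against A549 discodermolide 0 factors and 547 genes, and A549 discodermolide against A549 DMSO 0 factors and 4 genes. The adjusted p of FOXA1 was then 0.0357 in AD32 against A549 DMSO and 0.0557 in AD32 against A549 discodermolide, and that of KLF5 in AD32 against A549 DMSO was 0.0744. No paired analysis was possible for the AD32 4E-BP1 comparisons because that array has no number.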
